A study of Homo sapiens with 17 samples.

Results

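Short canyons are the stretches of under 50 kb on chromosomes 1 to 22 where the deposited list places a loss of H3K27me3 in senescent fibroblasts. They were selected by length alone, as end minus start in the canyon list, and 535 of the 1365 autosomal canyons met the limit, out of 1374 canyons on all chromosomes. Each was then assigned to one of 2 classes by its position relative to lamina-associated domains (LADs). The 355 short canyons with at least 50% of their base pairs inside LADs are called LAD canyons below, and the other 180 are called inter-LAD canyons.

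H3K27me3 is trimethylation of lysine 27 of histone H3, which Polycomb repressive complex 2 deposits and which accompanies stable silencing of developmental genes. LADs are the large, gene-poor and mostly silent parts of the genome that contact the nuclear lamina, the filament meshwork that lines the inner nuclear membrane and contains lamin B1. Lamin B1 is lost when fibroblasts become senescent, that is, when they leave the cell cycle for good after serial passage or after activation of an oncogene such as Ras. H3K4me3, trimethylation of lysine 4, normally marks active promoters in narrow peaks.

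The cells were IMR90, a line of human lung fibroblasts, profiled by chromatin immunoprecipitation and sequencing. For replicative senescence, cells at population doubling 87 that were kept for 2 further weeks (2 H3K27me3, 1 H3K4me3 and 2 histone H3 libraries) were set against proliferating cells at doubling 24 (4 H3K27me3, 1 H3K4me3 and 2 histone H3 libraries), and lamin B1 was mapped with 1 library from the proliferating cells. For oncogene-induced senescence, cells at doubling 15 that carried the retroviral construct pLNC-ER:Ras, switched on with 100 nM 4-hydroxytamoxifen, were set against control cells at doubling 15 (1 H3K4me3 and 1 histone H3 library on each side). The labels do not say whether the control cells carried the construct or received the drug, and lamin B1 binding in senescent cells was not analysed here. The deposited data are 5 lists of regions in the hg18 build with no value per library, so depth is unknown, no error between cultures can be given and no test between samples was possible. Mesas are broad stretches with more of a mark in senescence and canyons stretches with less, as the study uses these names; the H3K27me3 lists belong to replicative senescence, and the H3K4me3 mesas exist as a replicative and a Ras-induced list. H3K27me3 regions start on a grid of 100 bp, H3K4me3 mesas on 1000 bp and LADs on 10 kb.

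Errors below are 95% intervals, exact binomial (Clopper-Pearson) for shares and from order statistics for medians. They treat each region as independent and cover counting error only. The lengths of the short canyons, and their distances to longer canyons and to H3K27me3 mesas, come from the same H3K27me3 comparison that selected them and are given as a description, and nothing was tested. As a background, the autosomal span was tiled with 10-kb windows, and the 124574 of 273926 windows that touched no H3K27me3 canyon or mesa were divided into 85134 in LADs and 39440 outside them by the same 50% rule.

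The short canyons were many but small. They made up 39.2% of autosomal canyons and 0.986% of the canyon base pairs, 9.80 of 994.4 Mb. Their median length was 15.2 kb (14.5 to 15.6 kb), with 354 between 10 and 20 kb and 38 under 10 kb. LAD canyons had a median length of 15.1 kb (14.2 to 15.6 kb) and ran from 8.20 to 48.8 kb, and inter-LAD canyons had a median of 15.4 kb (14.5 to 16.7 kb) and ran from 7.30 to 49.9 kb, so the classes overlapped over nearly their whole length range. On a log scale, the lengths of all autosomal canyons had a peak near the low end and a broad hump further up. The limit fell in the lower stretch between them: 26 had 40 to 50 kb and 34 had 50 to 60 kb. The 3 canyons just inside it measured 49.1, 49.5 and 49.9 kb, and the 3 just outside 50.3, 50.3 and 50.5 kb.

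**Figure D1:**
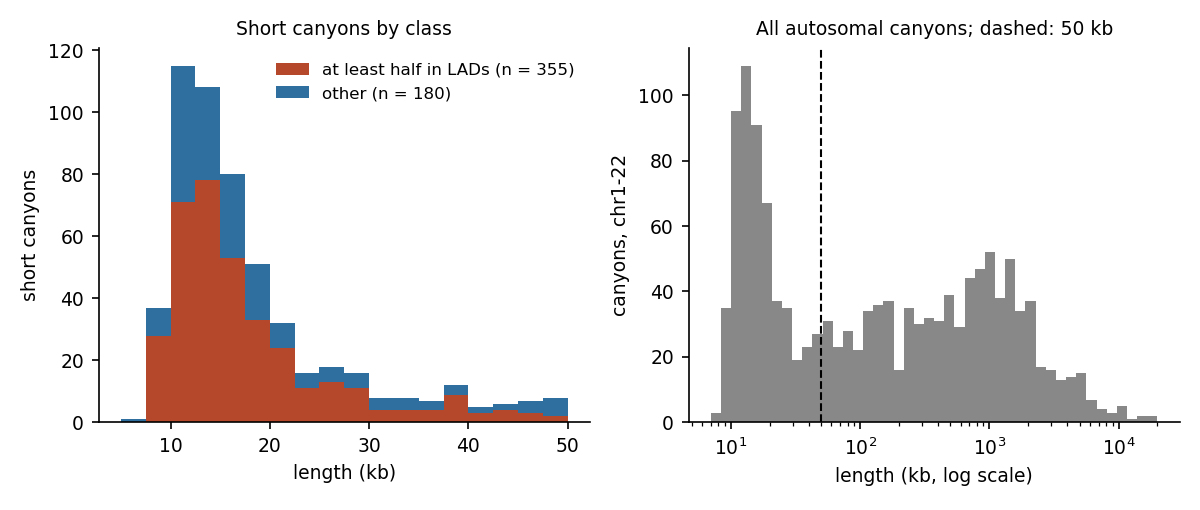
Left, number of short canyons by length (kb), with LAD canyons (355) in red and inter-LAD canyons (180, "other") stacked in blue. Right, number of all 1365 autosomal canyons by length on a log axis, with the 50 kb limit dashed. The short canyons form a narrow peak with a median of 15.2 kb.

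The longest LAD canyon lay on chromosome 2 at 165407101 to 165455899 (48.8 kb), inside a LAD of 2100 kb and 954 kb from its edge. The shortest, on chromosome 6 at 165996701 to 166004899 (8.20 kb), lay 1696 kb from any longer canyon and wholly under a Ras-induced H3K4me3 mesa. The longest inter-LAD canyon was on chromosome 14 at 75126701 to 75176599 (49.9 kb), 0.201 kb from a longer canyon. The shortest inter-LAD canyon, and of all 535, was on chromosome 5 at 64033701 to 64040999 (7.30 kb), 3096 kb from a longer canyon.

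By the 50% rule, short losses were placed in LADs more often than long ones. LAD canyons made up 66.4% of the short canyons (62.2 to 70.4%), while the same 50% rule placed 48.2% of the 382 canyons of 50 to 500 kb (43.1 to 53.3%) and 31.7% of the 448 canyons of 500 kb and over (27.4 to 36.2%) in LADs. The canyons of 500 kb and over had a median length of 1309.5 kb, against 430 kb for all autosomal LADs. Many of them cannot fit inside 1 LAD, so their share at 50% is not comparable with that of the short canyons. Among windows free of H3K27me3 regions the share in LADs was 68.3%, and among all windows 62.4%. Both of these window shares lie within the interval of the short canyons. Of the 697 H3K27me3 mesas under 50 kb, the gains of like size, 77.5% (74.2 to 80.5%) lay in LADs. Most short canyons fell clearly on one side: 346 were wholly inside LADs, 165 wholly outside, and 24 crossed a LAD edge, of which 9 had at least 50% inside. Among the short canyons themselves the LAD share did not fall steadily with length. It was 73.7% of the 38 under 10 kb and 66.4% of the 354 from 10 to 20 kb. From 20 to 30 kb it was higher again, at 72.0% of 82. Of those from 30 to 40 kb, 21 of 35 lay in LADs, and 46.2% of the 26 from 40 to 50 kb.

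Most LADs held no short canyon. The 355 LAD canyons lay in 274 of the 2001 autosomal LADs (13.7%), 212 of which held 1 each, 62 more than 1, and the fullest 7. Counted per region, the host LAD had a median length of 930 kb for LAD canyons (890 to 1090 kb) and 1860 kb for windows in LADs. The 180 inter-LAD canyons occupied 147 of 1981 gaps between LADs (7.42%), with at most 3 in a gap. Their host gap had a median length of 675 kb per canyon (570 to 830 kb), against 810 kb per window outside LADs, which lies within that interval. The hosts of the 2 classes differed in how much of them was lost: canyons of any size covered a median of 5.96% of the host LAD of a LAD canyon and 29.8% of the host gap of an inter-LAD canyon. By number, 48 LAD canyons (13.5%) and 70 inter-LAD canyons (38.9%) lay in a host that canyons covered to at least 50%. The same shares were not computed for all LADs and gaps. Over all windows the median distance to a canyon of 50 kb or more was 910.4 kb in LADs and 0 outside. Canyons thus lay more outside LADs in general, and the difference cannot be read as particular to these hosts.

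The classes stood apart most in their distance to the nearest longer canyon, one of 50 kb or more. The median gap was 806.5 kb (668.7 to 923.4 kb) for LAD canyons and 50.0 kb (13.8 to 188.4 kb) for inter-LAD canyons. LAD canyons had the larger median on 18 of 22 autosomes. The order was the same for H3K27me3 mesas under 50 kb, with medians of 755.1 kb in LADs (645.6 to 906.8 kb) and 364.0 kb outside (248.5 to 560.6 kb). In LADs their interval overlapped that of the canyons. Windows free of H3K27me3 regions had medians of 1313 kb in LADs and 833 kb outside, and the canyons had the smaller median on 19 of 22 autosomes in LADs and on 18 of 22 outside. This rests on leaving out windows in canyons: over all windows the medians were 910.4 kb in LADs, within the interval of the LAD canyons, and 0 outside LADs, below that of the inter-LAD canyons. The inter-LAD median falls in a sparse stretch of the distribution and moved by over 1.5 times with small changes: it was 28.0 kb without chromosome 22 and 99.6 kb without chromosome 2, and 120.5 kb both for canyons under 25 kb and with neighbours within 100 kb counted once. In each of these the LAD median stayed between 790 and 831 kb.

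**Figure D2:**
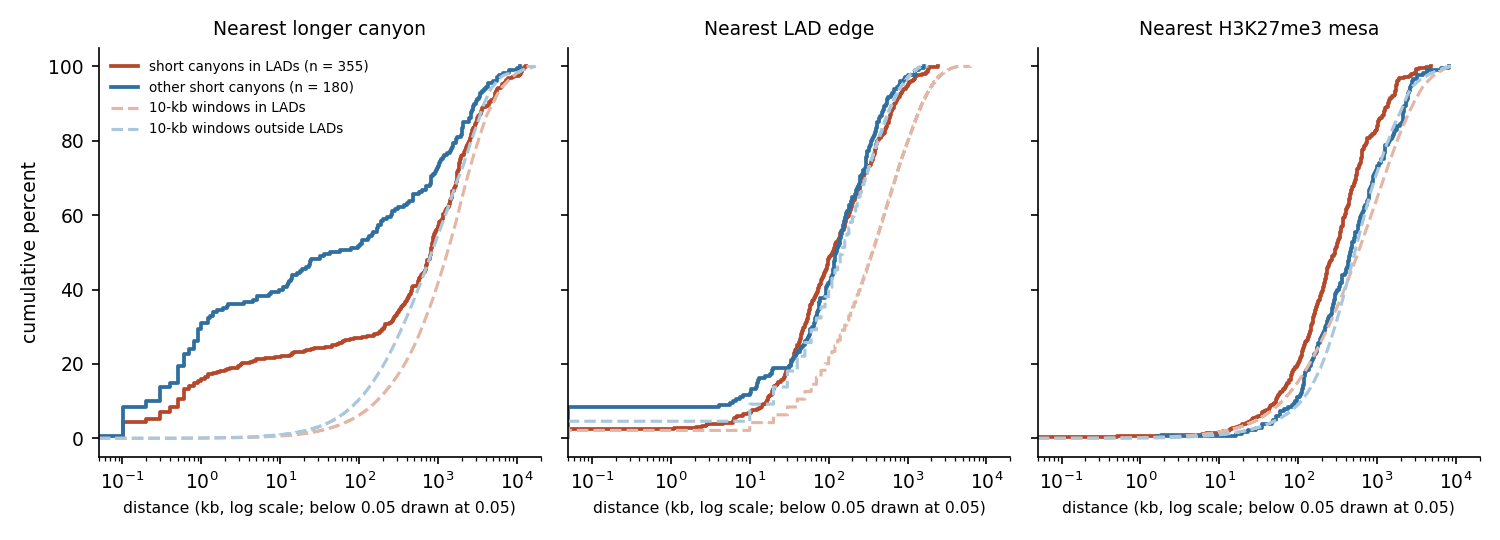
Cumulative percent of short canyons by distance (kb, log axis) to the nearest longer canyon, LAD edge and H3K27me3 mesa, for LAD canyons (red, 355) and inter-LAD canyons (blue, 180), with windows free of H3K27me3 regions dashed. In the left panel 50.0% of inter-LAD and 25.1% of LAD canyons lie within 50 kb of a longer canyon; in the middle panel LAD canyons lie left of the LAD windows.

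The distances had 2 modes. Within 1 kb of a longer canyon lay 55 LAD canyons (15.5%, 11.9 to 19.7%) and 53 inter-LAD canyons (29.4%, 22.9 to 36.7%), against 0.0658% of windows in LADs and 0.0761% of windows outside. A 10-kb window that touches no H3K27me3 region cannot fit into a gap of under 10 kb. The window shares are therefore held low by how the windows were chosen, and the contrast is no measure of enrichment. Within 50 kb lay 89 LAD canyons (25.1%) and 90 inter-LAD canyons (50.0%). Between 50 and 100 kb there were only 7 and 3, and 1000 kb or more away lay 153 LAD canyons (43.1%, 37.9 to 48.4%) and 48 inter-LAD canyons (26.7%, 20.4 to 33.8%). The canyons within 1 kb of a longer one had a median gap of 0.401 kb in both classes. One inter-LAD canyon, on chromosome 8, lay inside a longer canyon and shared its end.

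Such narrow gaps were not special to short canyons. Of 571 gaps between a short canyon and the next longer one along the chromosome, 129 were under 1 kb (22.6%, 19.2 to 26.2%). Of 234 gaps between successive short canyons 31 were (13.2%, 9.18 to 18.3%), and of 538 gaps between longer canyons 183 were (34.0%, 30.0 to 38.2%). How the list was made from windows is not given in the sources used here, and its part in the narrow gaps was not tested.

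Close pairs rarely straddled a LAD edge. No LAD edge lay in the gap of any pair within 1 kb, and within 50 kb an edge lay in the gap of 2 of 89 LAD canyons and 1 of 90 inter-LAD canyons; a gap of under 1 kb is short against the 10 kb step of the LAD list. The longer partner of a LAD canyon within 50 kb was itself at least 50% inside LADs in 48 of 89 cases (53.9%), and that of an inter-LAD canyon in 16 of 90 (17.8%). Partners had median lengths of 524 kb for LAD and 414 kb for inter-LAD canyons. Of these close canyons, 14 in LADs and 25 outside sat between 2 longer canyons, each within 50 kb. The LAD canyon on chromosome 9 at 4565901 to 4613599 (47.7 kb) and the inter-LAD canyon on chromosome 10 at 73307401 to 73355199 (47.8 kb) each lay 0.101 kb from a longer canyon, the smallest gap above 0 in the list. So did the LAD canyons on chromosome 10 at 127641901 to 127672399 and on chromosome 2 at 97035901 to 97064099.

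At the other extreme stood solitary losses. The LAD canyon farthest from any longer one, on chromosome 20 at 62343301 to 62357499 (14.2 kb), had none within 13066 kb, and that on chromosome 3 at 87346001 to 87358899 (12.9 kb) none within 12384 kb. Among inter-LAD canyons the most distant was also on chromosome 20, at 60077001 to 60091199 (14.2 kb, 10800 kb away), and the next, at 59172101 to 59189199, lay 9895 kb away with 46.2% of its length in a LAD and the whole of it under both H3K4me3 lists. Neither class was mainly made of clusters of short canyons. Joined to each other at gaps of up to 100 kb, 125 short canyons formed 56 clusters, of which 45 were pairs, 9 had 3 and 2 had 4. The other 410 had no short canyon within 100 kb. Longer canyons were not counted in this, and some of the 410 lay within 1 kb of one. Only 3 clusters mixed the classes. One cluster of 4, on chromosome 1 at 31689901 to 31803599, was almost unbroken, with 110.8 kb of short canyons in 113.7 kb, 3 of them in LADs. The other, on chromosome 2 at 90958901 to 91140299, held 57.7 kb in 181.4 kb, all in LADs, and lay 4299 kb from a longer canyon and 1207 kb from an H3K27me3 mesa. The next by size, on chromosome 1 at 146199201 to 146298899, held 3 LAD canyons.

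LAD canyons lay nearer to a LAD edge than windows in LADs. LAD canyons lay at a median of 112.5 kb from the nearest LAD edge (88.8 to 144.4 kb), against 360 kb for windows in LADs, and were nearer than the windows on 21 of 22 autosomes. Inter-LAD canyons lay at a median of 126.5 kb (106.1 to 155.7 kb), against 150 kb for windows outside LADs, and were nearer on 13 of 22. The medians of the 2 classes had overlapping intervals, and LAD canyons had the smaller one on 14 of 22 autosomes. H3K27me3 mesas under 50 kb lay at medians of 245.6 kb in LADs (226.3 to 266.2 kb) and 142.8 kb outside (84.3 to 180.8 kb), so in LADs they too were nearer than windows. Longer canyons in LADs were nearer still, at medians of 16.0 kb for those of 50 to 500 kb (8.60 to 29.5 kb) and 0 for those of 500 kb and over. A longer region reaches an edge more readily, so these medians are not like for like. Within 50 kb of a LAD edge lay 109 LAD canyons (30.7%), against 10.6% of windows in LADs, and 45 of the 180 inter-LAD canyons, against 22.1% of windows outside.

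The shorter host LADs of the canyons, given above, moved with this. A nearer edge was also seen within long LADs. In LADs of 500 kb and over, the 265 LAD canyons lay at a median of 187.7 kb from an edge, against 440 kb for windows. Of these canyons 104 (39.2%, 33.3 to 45.4%) had their midpoint in the outer 20% of the way from a LAD end to its centre, against 21.6% of windows, and the share dropped to 10.9% between 60 and 80% of the way and was 15.8% in the innermost stretch. In LADs under 500 kb, 15 of 90 (16.7%, 9.64 to 26.0%) lay in the outer 20%, against 20.4% of windows, and the median distances were 46.9 kb for canyons and 60 kb for windows. The nearer edge was also present away from long canyons: the 266 LAD canyons at least 50 kb from a longer canyon lay at a median of 128.2 kb from a LAD edge, against 370 kb for windows at the same remove. The exceptions were deep: the LAD canyon farthest from an edge, on chromosome 15 at 20685501 to 20704599 (19.1 kb), lay 2455 kb inside a LAD of 4990 kb, and the next, on chromosome 20 at 54356201 to 54367199, 1883 kb inside one of 3890 kb.

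**Figure D3:**
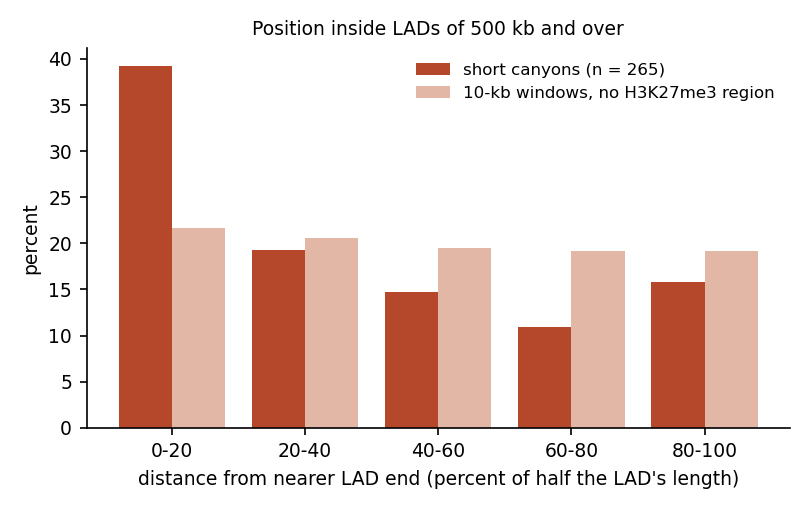
Percent of the 265 LAD canyons in LADs of 500 kb and over (dark), and of windows free of H3K27me3 regions in such LADs (pale), by the position of the midpoint between the nearer LAD end (0) and the centre (100). The outer 20% holds 39.2% of the canyons and 21.6% of the windows.

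LAD canyons lay nearer to a gain of H3K27me3 than inter-LAD canyons. No short canyon shared a base pair with an H3K27me3 mesa, as gains and losses come from the same comparison, and 1 abutted one, the LAD canyon on chromosome 16 at 22609001 to 22618099 (9.10 kb). The next nearest LAD canyons, on chromosome 3 at 75783501 to 75796899 and on chromosome 19 at 16021001 to 16034499, stood 0.501 and 1.8 kb from a mesa. The nearest inter-LAD canyon, on chromosome 3 at 50203201 to 50217499, stood 1.60 kb away. The median distance to a mesa was 293.4 kb (229.2 to 342.0 kb) for LAD canyons and 460.2 kb (358.1 to 582.3 kb) for inter-LAD canyons, with LAD canyons nearer on 18 of 22 autosomes. Windows had medians of 576.3 kb in LADs and 521.3 kb outside; LAD canyons were nearer than windows in LADs on 17 autosomes and inter-LAD canyons nearer than windows outside on 13. Within 50 kb of a mesa lay 9.58% of LAD canyons, against 8.05% of windows in LADs, and 5.00% of inter-LAD canyons, against 4.62% of windows outside. Over all windows the medians were 421.9 kb in LADs and 1004 kb outside. Canyons of 50 to 500 kb had medians of 348.4 kb in LADs and 435.0 kb outside, with intervals that overlapped those of the short canyons. Both showed the order of the short canyons, and only the windows free of H3K27me3 regions did not. The difference between the classes therefore cannot be read as particular to short canyons.

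Short canyons close to a longer canyon lay farther from a mesa than the rest. LAD canyons within 50 kb of a longer canyon lay at a median of 496.4 kb from a mesa and the remaining LAD canyons at 226.2 kb. For inter-LAD canyons the medians were 826.0 and 279.0 kb. Windows free of H3K27me3 regions did not share this order, with medians of 381.6 and 585.7 kb in LADs and 506.3 and 522.4 kb outside. Counting the next H3K27me3 region on either side, 127 LAD canyons (35.8%, 30.8 to 41.0%) and 51 inter-LAD canyons (28.3%, 21.9 to 35.5%) had a mesa on both sides. A canyon on both sides was found for 50 LAD canyons (14.1%, 10.6 to 18.1%) and 65 inter-LAD canyons (36.1%, 29.1 to 43.6%). One of each was found for 163 (45.9%) and 63 (35.0%). A mesa on both sides was more common for short canyons as a whole (33.3%, 29.3 to 37.4%) than for canyons of 50 to 500 kb (19.4%, 15.5 to 23.7%) and of 500 kb and over (21.0%, 17.3 to 25.1%). It was not particular to short losses: H3K27me3 mesas under 50 kb had 29.3% (25.9 to 32.8%), an interval that overlaps that of the short canyons.

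H3K4me3 mesas covered similar shares of LAD and inter-LAD canyons, with overlapping intervals, although they covered windows in and outside LADs very unequally. Replicative H3K4me3 mesas covered at least 50% of 61 LAD canyons (17.2%, 13.4 to 21.5%) and 27 inter-LAD canyons (15.0%, 10.1 to 21.1%), a difference of 2.18 percentage points. The background share was 20.2% for windows in LADs and 5.44% for windows outside, so LAD canyons were covered 0.850 times and inter-LAD canyons 2.76 times as often as their windows. Ras-induced mesas covered at least 50% of 107 LAD canyons (30.1%, 25.4 to 35.2%) and 55 inter-LAD canyons (30.6%, 23.9 to 37.8%), a difference of -0.415 points, with 22.7% and 13.3% of the windows covered, ratios of 1.33 and 2.29. Since no H3K4me3 mesa was shorter than 501.0 kb, cover was nearly all or none: 55 LAD and 26 inter-LAD canyons were wholly under replicative mesas, and 104 and 54 wholly under Ras-induced ones.

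**Figure D4:**
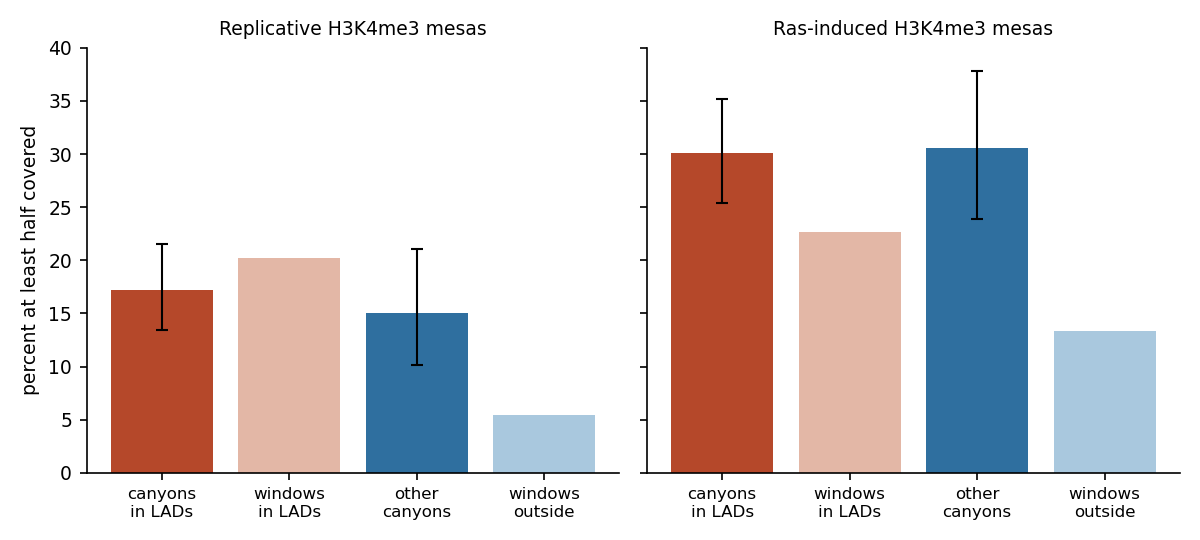
Percent of short canyons at least 50% under replicative (left) and Ras-induced (right) H3K4me3 mesas, with exact binomial 95% intervals, beside the percent of windows free of H3K27me3 regions. Inter-LAD canyons reach 15.0% and 30.6% where windows outside LADs reach 5.44% and 13.3%; for LAD canyons the replicative share is below that of the windows and the interval spans it.

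The choice of background bore on the LAD canyons. Over all windows, those in H3K27me3 regions included, 23.6% in LADs and 4.72% outside were at least 50% under replicative mesas, and 30.8% and 14.3% under Ras-induced ones. Against these the LAD canyons lay at or below the background for both lists, and the inter-LAD canyons remained above it for both. Chromosome by chromosome, inter-LAD canyons had a larger share than windows outside LADs on 14 of 22 autosomes for replicative mesas, a smaller one on 7 and an equal one on 1; for Ras-induced mesas it was larger on 17 and smaller on 5. LAD canyons had a smaller share than windows in LADs on 18 autosomes for replicative mesas and a larger one on 14 for Ras-induced mesas. Several autosomes held fewer than 5 inter-LAD canyons.

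Splits by host length and by distance to a longer canyon, chosen after the values were seen, gave the following. In gaps of 500 kb and over, 16 of 116 inter-LAD canyons (13.8%, 8.09 to 21.4%) were under replicative mesas, against 4.15% of windows, and 41 (35.3%, 26.7 to 44.8%) under Ras-induced ones, against 10.7%. In shorter gaps 11 of 64 (17.2%, 8.90 to 28.7%) were under replicative mesas, against 7.84% of windows; for Ras-induced mesas the share of 21.9% (12.5 to 34.0%) spanned the 18.2% of windows. In LADs under 500 kb, 3 of 90 LAD canyons (3.33%, 0.693 to 9.43%) were under replicative mesas, against 12.4% of windows, while in longer LADs 58 of 265 were (21.9%, 17.1 to 27.4%), against 21.2%. For Ras-induced mesas LAD canyons had 32.1% (26.5 to 38.1%) in the longer LADs against 22.9% of windows, and 24.4% (16.0 to 34.6%) in the shorter against 21.1%. Within 50 kb of a longer canyon, 11.2% of LAD canyons (5.52 to 19.7%) were under replicative mesas, against 23.1% of windows in LADs at that distance, and farther away 19.2% (14.6 to 24.4%), against 20.1%. Under Ras-induced mesas LAD canyons had 25.8% (17.1 to 36.2%) within 50 kb, against 29.1% of windows, and 31.6% (26.0 to 37.5%) farther away, against 22.5%. Of inter-LAD canyons within 50 kb, 17.8% (10.5 to 27.3%) were under replicative mesas, against 8.40% of windows outside LADs, and farther away 12.2% (6.26 to 20.8%), against 5.28%. Under Ras-induced mesas their share of 30.0% (20.8 to 40.6%) within 50 kb spanned the 21.9% of windows, and farther away it was 31.1% (21.8 to 41.7%), against 12.8%.

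Inter-LAD canyons were not covered by a single H3K4me3 domain. The 27 under replicative mesas lay in 24 mesas, and the 55 under Ras-induced mesas in 47, with at most 3 and 4 in one mesa. Those mesas were less confined to LADs than most: the median share of a mesa inside LADs was 64.4% for the 24 replicative mesas, against 100% for all 587 autosomal ones, and 47.7% for the 47 Ras-induced mesas, against 90.5% for all 755. A mesa that holds an inter-LAD canyon must reach outside LADs, so this is built into the choice. The mesas that held LAD canyons had medians of 98.5% and 87.9%.

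Both H3K4me3 lists together covered at least 50% of 43 LAD canyons (12.1%) and 17 inter-LAD canyons (9.44%). Replicative mesas alone covered 18 (5.07%) and 10 (5.56%), Ras-induced mesas alone 64 (18.0%) and 38 (21.1%), and neither list 230 (64.8%) and 115 (63.9%). Of windows free of H3K27me3 regions, 9.95% in LADs and 2.90% outside were under both lists, 10.3% and 2.55% under replicative mesas alone, 12.7% and 10.4% under Ras-induced mesas alone, and 67.0% and 84.1% under neither. The LAD canyons under neither list (59.6 to 69.8%) were thus at the background, those under replicative mesas alone (3.03 to 7.90%) below it, and the inter-LAD canyons under both lists above it. Cover by Ras-induced mesas alone was above it for LAD (14.2 to 22.4%) and inter-LAD canyons (15.4 to 27.8%). Over all windows in LADs that share was 16.6%, within the interval of the LAD canyons. Inter-LAD canyons under neither list (56.4 to 70.9%) were below the background. The longest LAD canyons wholly under both lists were on chromosome 10 at 126915901 to 126962299 (46.4 kb) and on chromosome 6 at 150326001 to 150365899 (39.9 kb). Each belonged to a cluster of 3 LAD canyons, at 126871401 to 126962299 and at 150311101 to 150405799. The inter-LAD canyon on chromosome 10 at 73307401 to 73355199, already named for its gap of 0.101 kb, was also wholly under both.

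Set beside regions of other sizes, the inter-LAD cover was close to that of middle-sized losses. Among all 1365 autosomal canyons, 12.6% were at least 50% under replicative and 25.6% under Ras-induced mesas. Of inter-LAD canyons of 50 to 500 kb, 11.6% (7.51 to 16.9%) were under replicative and 27.8% (21.7 to 34.6%) under Ras-induced mesas, with intervals overlapping those of the short ones. Canyons of that size in LADs had 20.1% (14.6 to 26.6%) and 33.2% (26.4 to 40.5%). Their shares in and outside LADs thus lay further apart than those of short canyons, though with overlapping intervals. Inter-LAD canyons of 500 kb and over had a median length of 1345 kb, longer than the median H3K4me3 mesa of either list (706.5 and 748.0 kb), so shares at 50% cover are not comparable with theirs. By base pairs, 16.4% of short and 6.40% of these long inter-LAD canyons lay under replicative mesas, and 33.1% and 15.7% under Ras-induced ones. H3K27me3 mesas under 50 kb had 37.6% (33.5 to 41.8%) in LADs and 16.6% (11.1 to 23.3%) outside under replicative mesas, so in LADs the short gains had a larger share than the short losses, with intervals apart, and outside LADs the intervals overlapped. Under Ras-induced mesas they had 42.6% (38.4 to 46.9%) and 43.3% (35.4 to 51.4%). None of these differences was tested.

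Every autosome carried short canyons of both classes. Their number ran from 9 on chromosome 21 to 67 on chromosome 1. Per Mb of span they were densest on chromosomes 20 (0.384), 19 (0.375), 22 (0.368) and 17 (0.305), and sparsest on chromosomes 5 (0.0774), 4 (0.110) and 13 (0.114). They accounted for 3.55% of canyon base pairs on chromosome 20 and 0.293% on chromosome 5. The LAD share ran from 38.5% on chromosome 22, with 5 of 13, to 88.9% on chromosome 16, with 16 of 18. Inter-LAD canyons outnumbered LAD canyons on chromosomes 4, 8 and 22, and the classes were equal on chromosome 5, at 7 each.

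**Figure D5:**
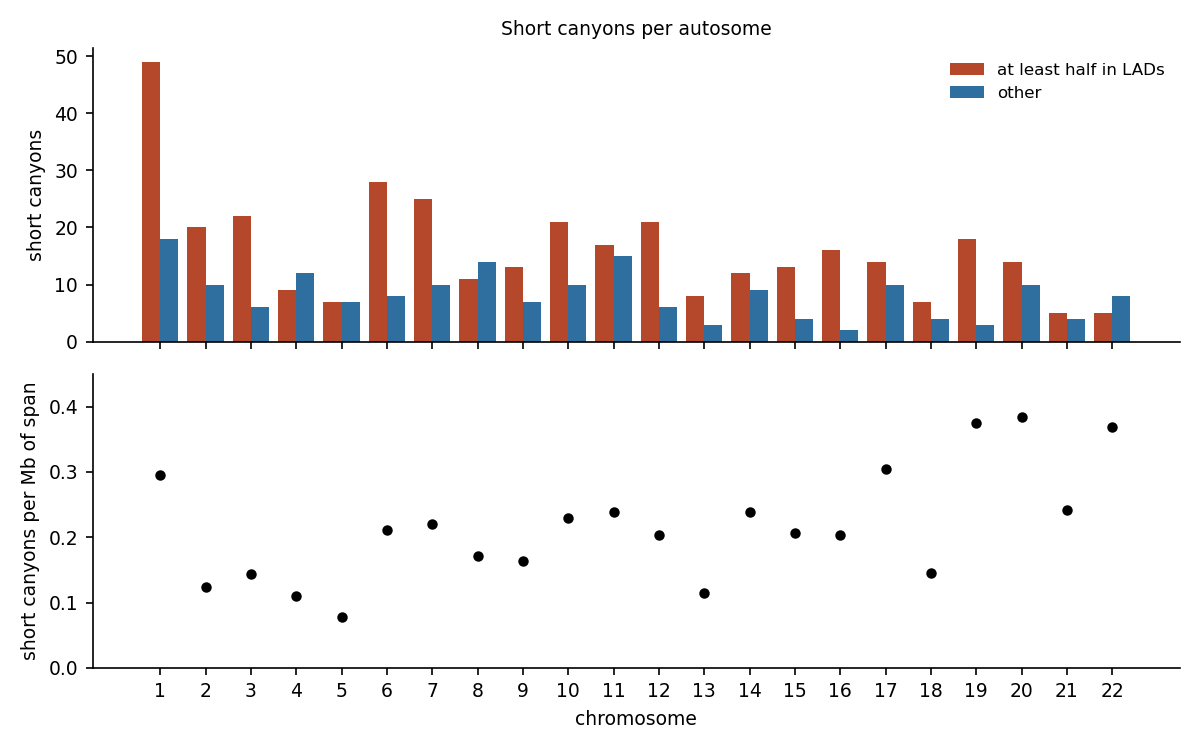
Top, number of LAD canyons (red) and inter-LAD canyons (blue, "other") on each autosome. Bottom, short canyons per Mb of chromosome span. Chromosomes 17, 19, 20 and 22 are above 0.3 per Mb, and chromosomes 4, 5 and 13 are below 0.12.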

How the data were processed

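The submitters' processing notes name Bowtie 0.12.5 and the hg18 build. No label or header used here states how regions were called, at what threshold, against which control, or whether libraries were pooled. Track names in the deposited LAD and replicative H3K4me3 lists, per the file headers, speak of merged and combined regions. The files deposited by the authors hold region starts and ends in base pairs, and the LAD score is 0 throughout. Starts are printed as the file's start plus 1. Distances are start minus end between nearest ends, and 0 where a LAD edge lies inside a region; LAD ends at chromosome ends were not counted as edges. Windows in stretches over 3 Mb that no list touches were left out. Cover was counted at 50% or more of a region. The regions named are taken from a rule over length, distance and cover (the longest, shortest, nearest and farthest of each class, and the largest clusters), of which the text gives a part. The classes, lists and rules were chosen with earlier results of these data known. Genes and sequences at the regions are not given here, because the annotation at hand is of another build. Python 3.11.15, numpy 2.4.6, pandas 2.3.3, SciPy 1.17.1 and matplotlib 3.10.9 were used, and the distance and cover functions were tested on simulated data.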

Additional observations from a re-analysis of the deposited data

How the results depend on the processing

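The share in LADs and the 5 measures of each class, 11 results in all, were recomputed under 13 settings: canyons under 25 kb or under 100 kb, canyons of 10 kb or more, the LAD class by midpoint or only if wholly inside, chromosome X added, distance from the midpoint, LADs under 50 kb apart joined, neighbours within 100 kb counted once, any overlap or only whole cover counted, and each chromosome left out in turn (lowest and highest value). With the limit at 100 kb, a longer canyon was one of 100 kb or more, while with the limit at 25 kb it stayed one of 50 kb or more. All 124 values lay within the 95% interval of the value reported. The interval of the inter-LAD distance to a longer canyon is wide (13.8 to 188.4 kb). Joining LADs changed nothing, since the smallest gap between autosomal LADs was 60 kb. The LAD class by midpoint also gave the reported value for every result, so neither setting adds to the counts of agreement given here. LAD canyons had the larger median distance to a longer canyon in 9 of 9 settings and the smaller one to a mesa in 9 of 9. They had the smaller distance to a LAD edge in 8 of 9, the exception being the class of wholly contained canyons (118.3 against 118.2 kb). For Ras-induced mesas the order of the classes turned in 2 of 10 settings, with shares of 30.1% and 30.6% that cannot be told apart. With no value per library, no library could be left out. No paired analysis was possible because the lists carry no replicate and no result comes from a test between samples.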

Other observations

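Chromosome X, left out by the choice of autosomes, held 9 canyons, of which 5 were under 50 kb.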
